A study of Mus musculus with 8 samples.

Results

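Genes of the oxidative phosphorylation system were followed on 8 arrays of mouse inguinal mammary gland tissue. The members were the genes whose symbol begins with Nduf, Uqcr, Atp5, Cox4, Cox5, Cox6, Cox7 or Cox8, together with Sdha, Sdhb, Sdhc and Sdhd. This gave 90 of the 18193 genes with a probe set of their own, each represented by its brightest probe set. All mice were virgin and gonadectomized, 12 to 13 weeks old per the labels, and received under the skin either vehicle (2 arrays, both labelled 24 h) or 17β-estradiol (E2), with 1 array for each of 6 times between 1 and 24 h before necropsy, which were 1 h, 3 h and 6 h (early) and 12 h, 18 h and 24 h (late). The dose is left out because the labels attach conflicting units to it, and no strain is named in the labels. Times were taken from the titles, since each description reads 24 h whatever its title. The labels say that tissue was gathered from all animals of a group, without stating whether an array holds RNA of several mice.

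Oxidative phosphorylation takes place in the inner mitochondrial membrane. Complex I accepts electrons from NADH and complex II from succinate, complex III passes them on to cytochrome c, and complex IV hands them to oxygen. Complexes I, III and IV pump protons, and complex V, the ATP synthase, makes ATP as the protons flow back. Most subunits are encoded in the nucleus and are needed in fixed proportions, and in adipose tissue, muscle and glandular epithelium their amount sets much of the capacity for respiration. A few subunits of complex IV exist as isoforms that are typical of heart and skeletal muscle.

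Values are array intensities on a linear scale, and differences are on the log2 scale, where 0.14 corresponds to a 1.10-fold level. Intensities of different genes come from different probes and were not compared with each other. The members were sorted by role into complex I (34 genes), complex II (4), complex III (8), complex IV (10, with Ndufa4, now counted as a complex IV subunit), complex V (17), muscle isoforms (3), other isoforms of restricted expression (5) and assembly or supercomplex factors (9). Of the 90 genes, 83 passed the level filter at an intensity of 211 and were tested. The 7 below it were Ndufb1, Ndufb4, Cox7c, Cox6b2, Cox7b2, Ndufaf5 and Ndufaf6.

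The median intensity of the arrays lay between 173.9 and 180.49. The tested genes had medians between -0.02 and 0.02 around the vehicle mean on every array. The vehicle arrays differed with an SD of 0.13 over the tested genes. The tissue carried its defining markers, with Epcam between 1615 and 1869.9 for epithelium and Adipoq between 14023 and 15907 for adipocytes. Skeletal muscle markers were also present and differed between arrays. In a bulk tissue, a change in the number of cells of a type and a change in RNA per cell cannot be told apart. The labels do not say that arrays hold separate animals, so p-values measure only how far arrays differ, for technical or other reasons.

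The main feature of the members was a small and even displacement on the 12 h array. At 12 h, 73 of the 83 tested members were above both vehicle arrays and 1 was below both, against 37.9% and 25.2% of all 10916 tested genes. The median member lay 0.13 above the vehicle mean, a 1.10-fold level, where the median of all tested genes was 0.01. Tested genes within the 10th to 90th percentile of the members' own level (3546 genes) also had a median of 0.01. The 12 h array was the highest of the 8 for 60 of the 83 members and for 15.9% of all tested genes. With quantile normalization it was the highest for 49 members (13.7% of all genes), and with arrays centred on their median for 61 (15.7%). The highest value fell on vehicle 1 for 1 member (7.48% of all genes), on vehicle 2 for 4 (12.8%), at 1 h for 3 (16.2%) and at 3 h for 1 (13.5%). It fell at 6 h for 7 members (16.3%), at 18 h for 6 (7%) and at 24 h for 1 (10.9%). No vehicle array was taken at 12 h and no second E2 array exists for this time, so E2, the time of day and this single array cannot be told apart.

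**Figure D1:**
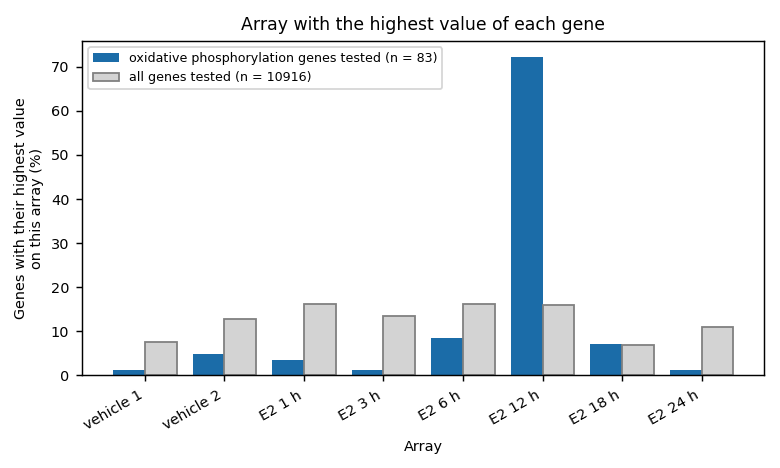
Percent of genes (y axis) whose highest value over the 8 arrays fell on each array (x axis), for the 83 tested oxidative phosphorylation genes (blue) and all 10916 tested genes (grey). The 12 h array holds the highest value of 60 of the 83 members and of 15.9% of all genes.

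On the other E2 arrays fewer members stood apart from vehicle. At 1 h, 44 members were above both vehicle arrays (39.7% of all tested genes) and 11 below both (22.1%). At 3 h, 18 were above (35%) and 30 below (28.6%), and at 6 h, 50 were above (38.6%) and 12 below (30.3%). At 18 h, 60 were above (27.2%) and 7 below (44.2%), and at 24 h, 38 were above (29%) and 18 below (46.4%). The 1 h and 6 h shares rest on the scaling, with 18 and 30 members above both vehicle arrays after quantile normalization, and 23 were above at 24 h with arrays centred on their median. Taking only the 70 tested subunits of complexes I to V, the medians from the earliest to the latest array were 0.03, -0.01, 0.05, 0.14, 0.07 and 0.01. From 6 h to 12 h, 66 of the 70 went up, against 52.1% of all tested genes. From 12 h to 18 h, 7 of the 70 went up, against 36.8% of all tested genes. Before 12 h the medians were smaller and of both signs, and with quantile normalization the member median at 1 h turned from 0.04 to -0.01. The member medians of vehicle 1 and vehicle 2 were 0.0024 and -0.0024 in the main setting, and 0.02 and -0.02 with quantile normalization. The 12 h median was 0.11 with quantile normalization and 0.13 with arrays centred on their median.

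**Figure D2:**
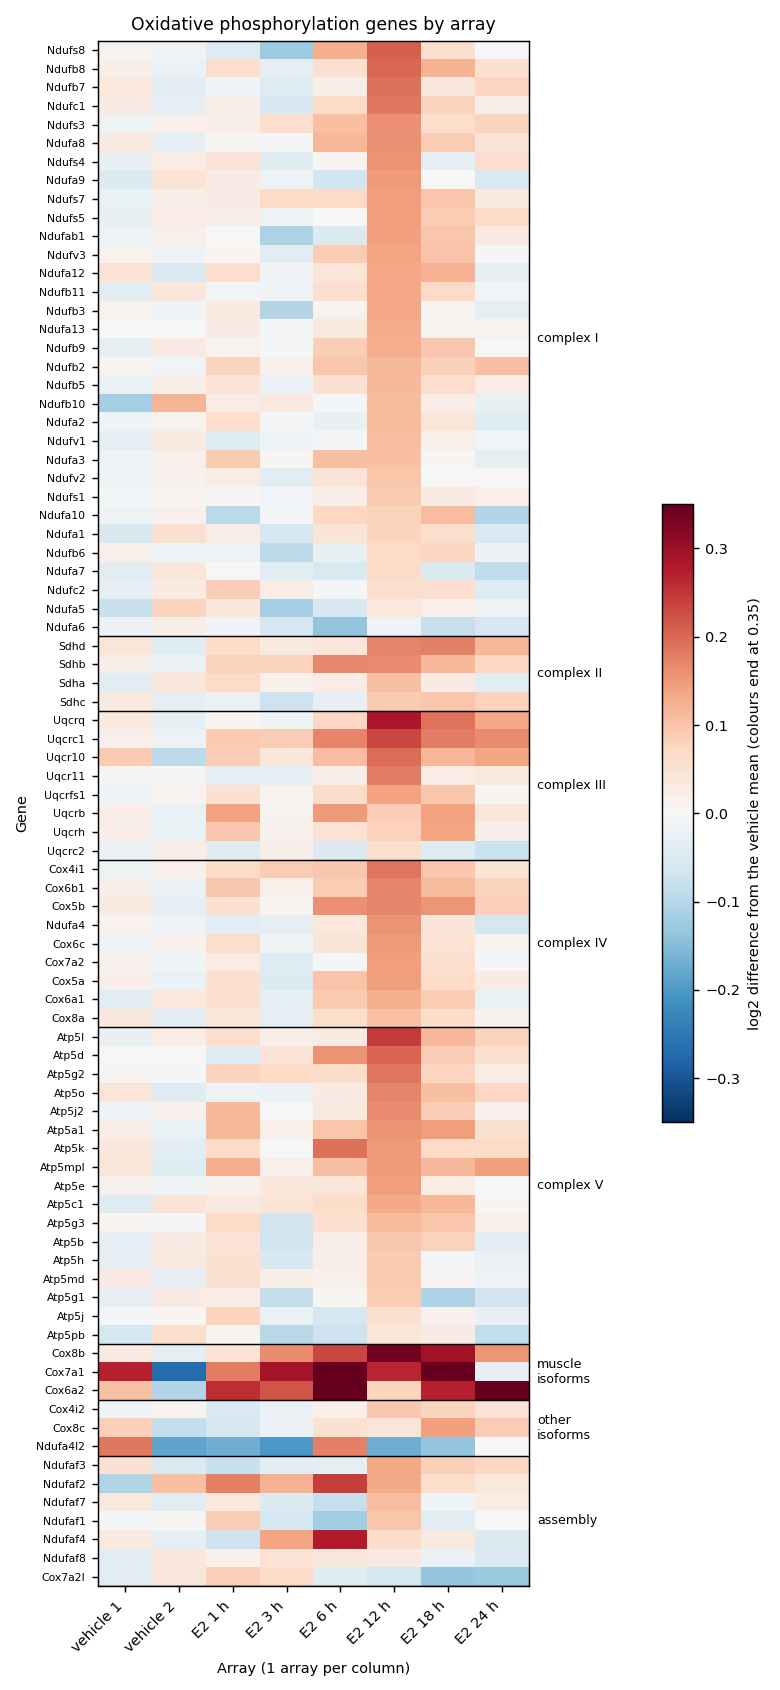
Log2 difference from the vehicle mean (colour, ending at 0.35 in either direction) of the 83 tested members (rows, grouped by complex or class and sorted by their 12 h value) on each of the 8 arrays (columns). The 12 h column is red in nearly every row of complexes I to V, where 66 of 70 subunits were above both vehicle arrays.

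Promoter sequences of members are shown as background, and a relation of their motifs to the 12 h values was not tested. RefSeq (GRCm38.p6) gave promoters for 74 of the 90 members, of 300 bases each, from 250 before to 50 after the gene start. Both strands were searched for exact motifs of regulators of respiratory genes. The NRF1 motif GCGCATGCG stood in 9 of 74 members (12.2%) and in 1.95% of all 27025 genes with a promoter. The YY1 motif AAGATGGCG stood in 7 members (9.46%) and 1.64% of all genes. Longer forms of these motifs, by 1 and 2 letters, stood in 8.11% and 5.41% of members and in 1.07% and 0.755% of all genes. The GABP motif CCGGAAGT stood in 5 members (6.76%) and 4.31% of all genes, and the estrogen-related receptor motif TCAAGGTCA in 2 (2.7%) and 0.466%. The palindromic estrogen response element stood in 0 of 74 members and in 0.074% of all genes. The members' promoters were also richer in G and C, with a median of 59.0% against 52.7%. A match is a description of letters only.

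The 250 bases upstream of 5 genes follow, each 5′ to 3′ on the gene's strand, with matched motifs in capitals, as 1 example for each of 3 motifs and the muscle isoforms with a promoter in the table. Cox6a1, at chr5:115348959-115349208 on the minus strand, holds the NRF1 motif on both strands, overlapping itself. Uqcr11, at chr10:80406822-80407071 on the minus strand, holds a GABP match, and an NRF1 match that crosses the gene start lies partly outside the bases shown. Atp5g3, at chr2:73911327-73911576 on the minus strand, holds an estrogen-related receptor match on the opposite strand. Cox7a1, at chr7:30183921-30184170 on the plus strand, and Cox8b, at chr7:140900447-140900696 on the minus strand, hold none of the motifs.
Cox6a1: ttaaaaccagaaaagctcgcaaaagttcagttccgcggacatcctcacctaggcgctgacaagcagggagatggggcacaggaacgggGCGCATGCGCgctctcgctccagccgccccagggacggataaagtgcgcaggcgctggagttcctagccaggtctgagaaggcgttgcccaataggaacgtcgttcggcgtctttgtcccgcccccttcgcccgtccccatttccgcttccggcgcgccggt
Uqcr11: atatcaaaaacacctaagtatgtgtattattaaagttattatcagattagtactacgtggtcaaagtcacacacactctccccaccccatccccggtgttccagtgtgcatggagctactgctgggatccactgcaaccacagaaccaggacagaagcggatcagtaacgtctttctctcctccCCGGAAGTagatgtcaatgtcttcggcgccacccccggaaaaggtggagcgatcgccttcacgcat
Atp5g3: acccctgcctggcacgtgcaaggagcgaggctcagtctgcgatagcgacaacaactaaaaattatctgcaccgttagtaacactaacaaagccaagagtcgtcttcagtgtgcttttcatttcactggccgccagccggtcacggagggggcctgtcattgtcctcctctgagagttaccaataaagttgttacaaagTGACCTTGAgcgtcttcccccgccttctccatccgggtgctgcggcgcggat
Cox7a1: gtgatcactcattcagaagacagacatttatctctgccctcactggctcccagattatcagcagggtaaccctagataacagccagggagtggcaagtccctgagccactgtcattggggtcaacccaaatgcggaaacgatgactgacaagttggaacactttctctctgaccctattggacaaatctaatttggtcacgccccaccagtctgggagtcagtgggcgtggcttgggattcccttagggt
Cox8b: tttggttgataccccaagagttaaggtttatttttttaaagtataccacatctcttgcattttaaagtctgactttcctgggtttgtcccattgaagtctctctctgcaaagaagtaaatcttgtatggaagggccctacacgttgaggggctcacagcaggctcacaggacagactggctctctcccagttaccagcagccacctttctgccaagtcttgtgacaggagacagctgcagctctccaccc

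In complex I, the NADH dehydrogenase, 29 of 32 tested subunits were above both vehicle arrays at 12 h and 0 were below both, with a median of 0.13. The 6 subunits of the catalytic core that were measured (Ndufv1, Ndufv2, Ndufs1, Ndufs3, Ndufs7 and Ndufs8) had the same median of 0.13, with all 6 above both vehicle arrays. The 26 accessory subunits also had a median of 0.13, with 23 above. Ndufs8, which carries iron-sulfur clusters of the core, read 2446 and 2404 on the vehicle arrays. After E2 it read 2351, 2222, 2648, 2801, 2519 and 2428 from the earliest to the latest time, the order used for all members. It had the widest range in complex I, with its lowest array at 3 h and its highest at 12 h on this probe set. On none of its other probe sets was 3 h below both vehicle arrays, while 12 h was above both on each. The brightest of them read 10.74 (log2) at 3 h, against 10.75 and 10.70 with vehicle. Ndufb8, an accessory subunit of the membrane arm, read 3267 and 3179.8 with vehicle and 3367, 3155, 3351, 3708, 3504 and 3345 after E2, with all late arrays above vehicle. Ndufab1, which is also the mitochondrial acyl carrier protein, read 2561 and 2621 with vehicle, 2593, 2399 and 2499 at 1 to 6 h, and 2864, 2772 and 2652 at 12 to 24 h. Its late arrays did not overlap its early arrays on this probe set. On a dimmer Ndufab1 probe set they did overlap, and 12 h lay at -0.10, below both vehicle arrays.

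Ndufs1, the largest core subunit, stayed within a narrow band, at 1172 and 1185 with vehicle and at 1182, 1169, 1197, 1255, 1204 and 1193 after E2. The complex I members not above both vehicle arrays at 12 h on their brightest probe sets were Ndufa5, Ndufa6 and Ndufb10. The dimmer Ndufa5 probe set was above both at 12 h, while a dimmer probe set each of Ndufv2, Ndufb5 and Ndufc2 was not. Ndufa6 read 1859.6 and 1913 with vehicle and 1871, 1810.4, 1713, 1868, 1785 and 1810.4 after E2, so its E2 arrays overlapped or lay below the vehicle arrays. Ndufb10 had the widest gap between the vehicle arrays in this complex, at -0.24 for vehicle 1 minus vehicle 2.

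In complex II, succinate dehydrogenase, all 4 subunits were above both vehicle arrays at 12 h, with a median of 0.14. Sdhd, a membrane anchor, read 2857 and 2694 with vehicle, 2898, 2835 and 2853 at 1 to 6 h, and 3125, 3133 and 3008 at 12 to 24 h. The late arrays lay above all others. On a dimmer Sdhd probe set the 12 h array lay at -0.0049, below both vehicle arrays. Sdhc, the other anchor, read 3892 and 3727 with vehicle, 3751, 3619.8 and 3732 early, and 4056, 4078 and 4031 late. A dimmer Sdhc probe set did not show this pattern, with log2 levels of 10.91 and 10.99 with vehicle, 11.08 at both 1 h and 12 h, and 10.98 at 24 h. Sdhb, the iron-sulfur subunit, read 2635 and 2565 with vehicle and 2749, 2752, 2919.7, 2915, 2815 and 2733 after E2, above vehicle on all 6 arrays. Sdha, the flavoprotein that oxidises succinate, read 4427 and 4678 with vehicle and returned to 4437 at 24 h from 4895 at 12 h.

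In complex III, the cytochrome bc1 complex, all 8 subunits were above both vehicle arrays at 12 h on their brightest probe sets, with a median of 0.16. Uqcrq, a small subunit next to cytochrome b, read 1611 and 1536 with vehicle, 1579, 1554 and 1656 early, and 1915, 1795 and 1728 late. Its 12 h value was the highest of all subunits of complexes I to V, at 0.28 above the vehicle mean. The other Uqcrq probe set that passed the filter lay at -0.04 at 12 h, so the probe sets of this gene disagree. Uqcrc1, a core protein, read 3415 and 3337 with vehicle and 3598, 3585, 3802, 3969.7, 3819 and 3783 after E2, above vehicle at every time. Uqcr11 read 1936 and 1948 with vehicle, 1901, 1896 and 1973 early, 2205 at 12 h, and 1977 and 1989.8 at 18 and 24 h. Uqcrb, which binds at the ubiquinone site, read 14871 and 14392 with vehicle and 16132, 14756, 16208, 15536, 16115 and 15032 after E2, with no peak at 12 h. The core protein Uqcrc2 lay at 0.06 at 12 h and below the vehicle mean at 18 and 24 h (-0.05 and -0.08). On a dimmer Uqcrc2 probe set the 12 h array lay at -0.03, below both vehicle arrays.

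In complex IV, cytochrome c oxidase, all 9 tested subunits (those other than Cox7c) were above both vehicle arrays at 12 h on their brightest probe sets. All 9 had their highest value there, with a median of 0.15. A dimmer Cox6c probe set lay at -0.0073 at 12 h, inside the vehicle range, and the dimmer Cox5a probe sets were highest at 18 h. On the brightest probe sets complex IV was also the most even of complexes I to V, with 12 h values between 0.10 and 0.19. Its SD over genes was 0.0258, against 0.0414 to 0.0797 in the other complexes and 0.118 over all tested genes. The muscle and other restricted isoforms of complex IV and Cox7a2l are not among these 9 genes. Cox4i1, the regulatory subunit that binds ATP, read 6089 and 6237 with vehicle and 6452, 6559, 6581, 7021, 6574 and 6368 after E2. All its E2 arrays lay above vehicle. Cox5b read 6206 and 5945 with vehicle and 6302, 6114, 6791, 6833, 6759.9 and 6439.9 after E2, while the dimmest of its other probe sets above the filter lay at -0.05 at 12 h. Cox6b1, which faces cytochrome c, read 6351 and 6171 with vehicle and 6689.9, 6334, 6663, 7054, 6759 and 6609.8 after E2. Ndufa4 read 4829.6 and 4746 with vehicle, 5337 at 12 h and 4588 at 24 h, which was its lowest array.

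In complex V, the ATP synthase, 16 of 17 subunits were above both vehicle arrays at 12 h, with a median of 0.15. The 5 subunits of the catalytic F1 head had a median of 0.15, the 3 genes for the c subunit of the rotor 0.11 and the other 9 genes 0.15. Atp5l, subunit g of the membrane part, read 2294 and 2378 with vehicle, 2432, 2373 and 2383 early, and 2769, 2531 and 2468 late. Its 12 h value was the highest in the complex, at 0.25. Atp5o, the stalk subunit that confers oligomycin sensitivity, read 4168 and 3934 with vehicle, 3998, 3989 and 4132 early, and 4561, 4355 and 4259.8 late. Atp5a1, the alpha subunit of the head, read 7625 and 7381 with vehicle and 8128, 7591, 8026, 8363, 8309 and 7786 after E2. Atp5pb, a stalk subunit, was the member not above both vehicle arrays, at 3548 and 3866 with vehicle and 3817 at 12 h. On its dimmer probe set the 12 h array was above both, at a log2 level of 11.08 against 10.96 and 10.99.

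**Figure D3:**
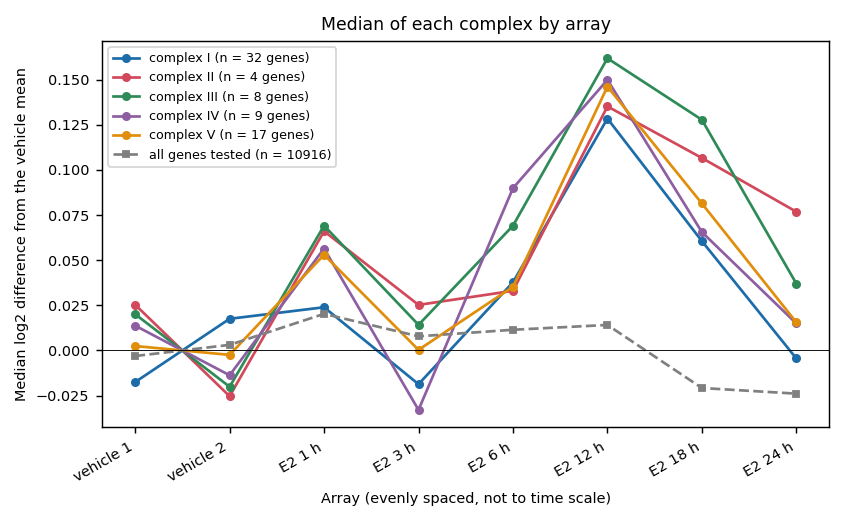
Median log2 difference from the vehicle mean (y axis) of the tested genes of each complex and of all tested genes (dashed grey), on each of the 8 arrays (x axis, evenly spaced). Each complex peaks at 12 h, between 0.13 and 0.16, while the median of all genes is 0.01 there; with quantile normalization complex II is instead highest at 24 h.

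The complexes differed little from one another at 12 h, with medians from 0.13 (complex I) to 0.16 (complex III), but differed in how far they had returned by 24 h. At 18 h the medians were 0.06 for complex I, 0.11 for complex II, 0.13 for complex III, 0.07 for complex IV and 0.08 for complex V. At 24 h they were -0.0045, 0.08, 0.04, 0.01 and 0.02 in the same order, so that complex II stayed farthest from vehicle. The vehicle arrays themselves differed by -0.04, 0.05, 0.04, 0.03 and 0.0049 in these medians. The order of the complexes is a description of single arrays with no test. With quantile normalization the 24 h medians became 0.05, 0.14, 0.09, 0.05 and 0.06, and with arrays centred on their median they became -0.03, 0.05, 0.0093, -0.01 and -0.01.

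No member passed the test in a comparison of windows. The early window pooled the 1, 3 and 6 h arrays (n = 3), the late window the 12, 18 and 24 h arrays (n = 3), and both were compared with vehicle (n = 2) and with each other in limma. Arrays of different times served as replicates within a window, so a change confined to 1 time added to the spread that the test used. A gene was called at a Benjamini-Hochberg adjusted p below 0.05 over all 10916 tested genes. In the early window 0 of 83 members were called, against 0% of all genes, and the member median was 0.02 above vehicle where that of all genes was 0.01. With quantile normalization this early median turned to -0.0054. The count at an unadjusted p below 0.05 was 3, all higher (Ndufaf2, Uqcrc1 and Cox6a2), against 3.64% of all genes higher and 1.74% lower. The early mean was above vehicle for 57 members (57.6% of all genes) and below for 26 (42.4%). Early arrays lay wholly above vehicle for 12 members (13.7%) and wholly below for 1 (6.23%).

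In the late window 0 of 83 members were called against vehicle by limma, and 0% of all genes were. The smallest adjusted p of a member was 0.634. The late mean was above the vehicle mean for 75 of the 83 members, against 45.1% of all tested genes, and below it for 8, against 54.9%, and the member median was 0.08 where that of all genes was -0.01. Late arrays lay wholly above vehicle for 35 members, against 11.1% of all genes, and wholly below for 1 (Cox7a2l), against 13.3%. At an unadjusted p below 0.05 there were 11 members, all higher, against 2.8% of all genes higher and 4.8% lower. These were Sdhb, Sdhd, Uqcr10, Uqcrc1, Uqcrq, Cox5b, Cox6b1, Cox8b, Atp5l, Atp5mpl and Atp5o. Without the 12 h array the late median of the members was 0.05, and those of complexes I to V were 0.03, 0.09, 0.08, 0.04 and 0.05.

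None of the single differences in the late window passed the adjustment over all 10916 genes. Uqcrc1 lay 0.19 ± 0.0495 (SE) above vehicle, a 1.14-fold level (limma adjusted p = 0.634). Uqcrq lay 0.20 ± 0.058 above vehicle, a 1.15-fold level (limma adjusted p = 0.634), and Sdhd 0.15 ± 0.0481 above. Atp5l lay at 0.15 ± 0.0573, Atp5mpl, a small proteolipid of the ATP synthase, at 0.14 ± 0.0521, and Cox5b at 0.14 ± 0.058. In complex I the smallest p-values were those of Ndufb2 at 0.10 ± 0.0464 and Ndufb8 at 0.13 ± 0.0572 (limma adjusted p = 0.648 for both). Among the brightest members, Ndufa1 lay at 0.03 ± 0.0613 and Atp5g3 at 0.08 ± 0.057.

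The late and early windows were compared directly because this difference uses no vehicle array. Limma called 0 of 83 members, against 0.247% of all genes higher and 0.302% lower. The late mean was above the early mean for 70 members, and below it for 13, against 40.4% and 59.6% of all genes, and the medians were 0.04 for the members and -0.03 for all genes. The medians of complexes I to V were 0.04, 0.06, 0.06, 0.04 and 0.04. Late arrays lay wholly above the early arrays for 12 members, against 8.96% of all genes, and wholly below for 1 (Cox7a2l), against 15%. At an unadjusted p below 0.05 there were 7 higher (5.5% of all genes) and 1 lower (13.6%). The member median was 0.08 with quantile normalization, 0.03 with centred arrays, 0.02 with the adipocyte markers as covariate, and 0.03, 0.01 and 0.07 when the 3 h, the 12 h or the 24 h array was left out. The smallest adjusted p was that of Uqcrq, at 0.18 ± 0.0518 (limma adjusted p = 0.14), followed by Sdhc at 0.13 ± 0.0408 (adjusted p = 0.155). Ndufab1 lay at 0.15 ± 0.0481 (adjusted p = 0.172), Sdhd at 0.11 ± 0.043, Ndufs5 at 0.10 ± 0.0426 and Atp5o at 0.12 ± 0.0461.

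**Figure D4:**
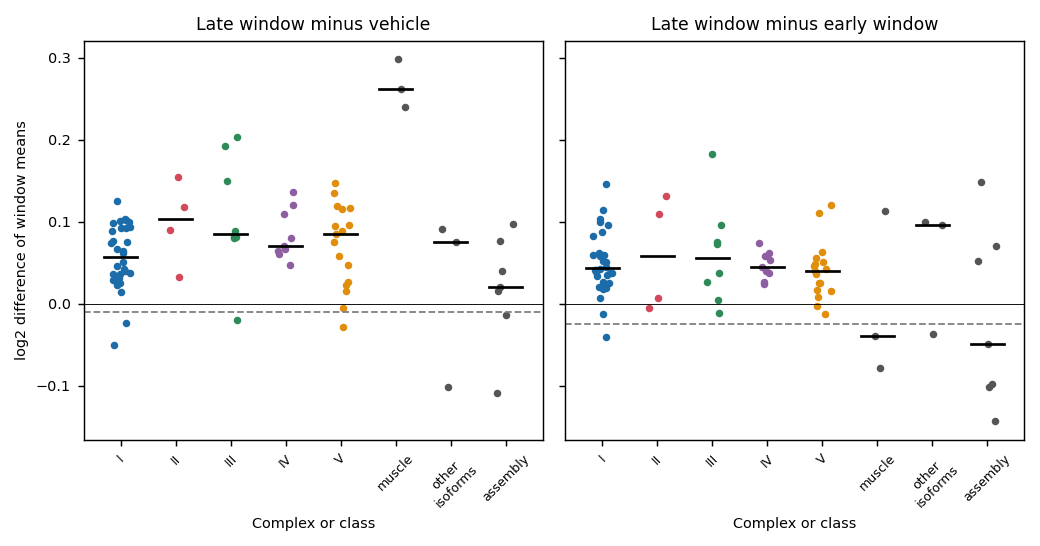
Log2 difference of window means (y axis) for each tested member (points) by complex or class (x axis), late window minus vehicle on the left and late minus early window on the right; black bars are class medians and the dashed line is the median of all tested genes. Complexes I to V have late medians of 0.06, 0.10, 0.08, 0.07 and 0.08 against -0.01 for all genes.

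A limma fit with 1 mean per group, which takes the spread at each single time from the vehicle pair (1 residual degree of freedom), called 0 members at any of the 6 times, against 0.0641%, 0.595%, 0.366%, 0.0366%, 0% and 0% of all genes in time order. At an unadjusted p below 0.05 there were 0 members at 1 h and 3 h (2.75% and 6.53% of all genes), 3 at 6 h (7.96%), and 1 each at 18 h and 24 h (5.84% and 6.4%). At 12 h, 7 members had an unadjusted p below 0.05, all higher, against 4.37% of all genes in either direction. The smallest adjusted p at 12 h was that of Cox8b, at 0.663.

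Of the 3 muscle isoforms of complex IV, Cox8b was highest at 12 h, and Cox6a2 and Cox7a1 were highest on other arrays. Cox6a2, Cox7a1 and Cox8b take the place of Cox6a1, Cox7a2 and Cox8a in heart and skeletal muscle, and Cox7a1 and Cox8b are also abundant in brown fat. Cox6a2 read 249 and 216 with vehicle and 277, 270.0, 335, 245, 279.7 and 338 after E2. It was highest at 6 and 24 h and inside the vehicle range at 12 h. Cox7a1 read 278 and 191 with vehicle and 260.3, 281, 323, 277, 322 and 225 after E2, so most E2 arrays lay near or within the wide vehicle range. Cox8b read 2328 and 2228 with vehicle and 2356, 2557, 2677, 2876, 2795 and 2536 after E2, above vehicle at every time and highest at 12 h.

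Skeletal muscle markers were highest at 6 h, where Cox6a2 was also high, and their part in its values was not tested. The 20 tested skeletal muscle markers of a list of 28 averaged 0.81, 0.64, 1.24, 0.20, 0.83 and 0.93 above the vehicle mean at the 6 times, with vehicle 1 above vehicle 2. Ckm, the muscle creatine kinase, read 1696 and 1231 with vehicle, 3364 at 6 h and 1880.4 at 12 h. The 5 tested brown fat markers of a list of 12 averaged 0.09, 0.39, 0.25, 0.27, 0.47 and 0.11, with vehicle 1 at 0.22 and vehicle 2 at -0.22. Their medians were -0.01, 0.23, 0.03, 0.18, 0.48 and 0.19, and 2 of the 5 were above both vehicle arrays at 12 h (37.9% of all tested genes). Ucp1, the uncoupling protein that defines brown fat, read 1054 and 632 with vehicle, 1295 at 12 h and 631 at 24 h. Among the E2 arrays, the mean of the muscle markers was lowest at 12 h, at 0.20, beside 0.19 on vehicle 1 and -0.19 on vehicle 2. Whether muscle content shaped the 12 h values of the subunits was not tested. For the late window as a whole, the member median above vehicle was 0.09 with the muscle marker mean as covariate and 0.08 without it. The part of brown fat in the values of Cox7a1 and Cox8b was not tested.

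In the late window Cox8b lay 0.26 ± 0.0709 above vehicle, a 1.2-fold level (limma adjusted p = 0.634), Cox6a2 at 0.30 ± 0.137 and Cox7a1 at 0.24 ± 0.176. The partners of wide expression lay at 0.06 ± 0.0616 (Cox6a1), 0.07 ± 0.0556 (Cox7a2) and 0.06 ± 0.0536 (Cox8a). Cox6a1 read 8913 and 9382 with vehicle and 9959 at 12 h. Cox7a2 read 6327 and 6208 with vehicle and 6942 at 12 h. Cox8a read 9319.7 and 8813 with vehicle and 9734 at 12 h. In the early window Cox6a2 lay at 0.34 ± 0.137 (limma adjusted p = 0.876) and its partner Cox6a1 at 0.04 ± 0.0616.

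**Figure D5:**
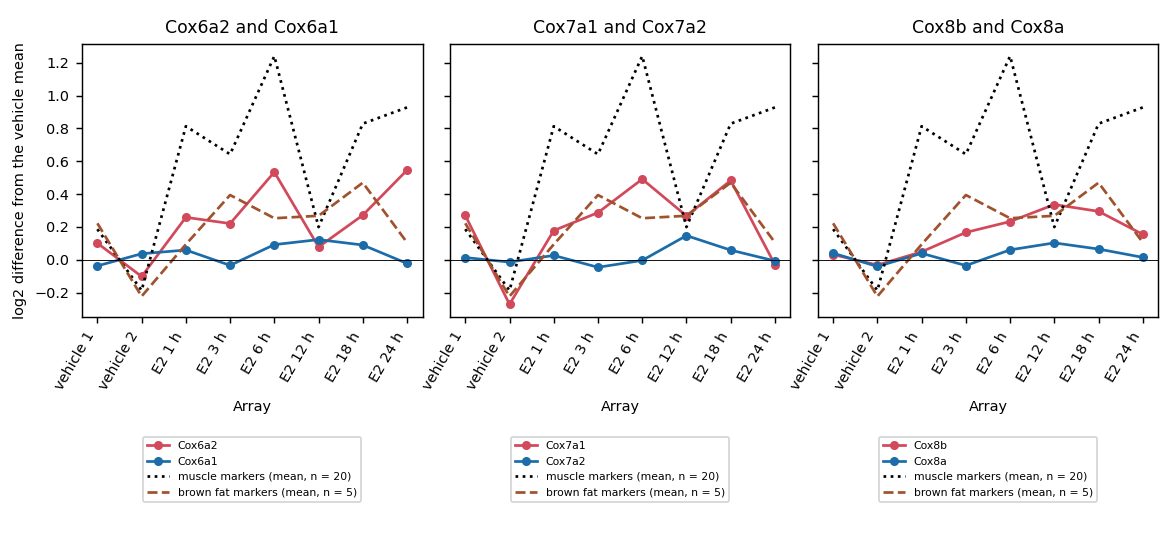
Log2 difference from the vehicle mean (y axis) of each muscle isoform (red) and its partner of wide expression (blue) on the 8 arrays (x axis), with the mean of 20 skeletal muscle markers (dotted) and of 5 brown fat markers (dashed). Muscle markers average 0.20 at 12 h, where the partners reach 0.10 to 0.15 and Cox8b reaches 0.34.

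The other isoforms and the assembly factors varied among themselves at 12 h. Of the 3 tested restricted isoforms 1, Cox4i2 of lung and hypoxic tissue, was above both vehicle arrays at 12 h. Ndufa4l2, a hypoxia-inducible relative of Ndufa4, read 823 and 637 with vehicle and 643, 630.1, 818, 643, 658 and 725 after E2, inside the vehicle range on all but the 3 h array. Of the 7 tested assembly and supercomplex factors, 5 were above both vehicle arrays at 12 h, with a median of 0.10. Ndufaf3, a complex I assembly factor, read 524 and 487 with vehicle, 479, 492 and 494 early, and 556, 535 and 532 late. Ndufaf4, which works with it, was instead highest at 6 h, at 1031 against 872 and 831 with vehicle.

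Cox7a2l, a factor that joins complexes III and IV into supercomplexes, ran against most other members. It read 1957 and 2071 with vehicle, 2131, 2107 and 1951 at 1, 3 and 6 h, and 1929, 1833 and 1838 at 12, 18 and 24 h. Its late arrays lay below all vehicle and early arrays. Late arrays lay wholly below vehicle for 13.3% of all tested genes and wholly below early for 15%. Its other probe sets lay at -0.07 and -0.11 at 12 h. On the brighter of them the 12 h array (log2 10.597) was above the 6 h array (10.592). It lay at -0.11 ± 0.0565 in the late window against vehicle (limma adjusted p = 0.648) and at -0.14 ± 0.0506 against the early window (adjusted p = 0.192). When the mean of the muscle markers entered the fit, the late minus early difference was -0.17 (limma adjusted p = 0.0497). That setting called 587 of the 10916 genes, 464 of them lower, and this was the sole call of a member in any alternative.

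Markers of other cell types are given beside the 12 h pattern. The 14 luminal epithelial markers averaged 0.38, 0.30 and 0.23 on the late arrays in time order, after 0.03, -0.08 and -0.08 at the early times. At 12 h, 10 of 14 were above both vehicle arrays, against 37.9% of all tested genes. Limma called 3 of these 14 higher in the late than in the early window, against 0.247% of all tested genes. Krt8, a luminal keratin, read 1149 and 1119.6 with vehicle and 2941 at 12 h, while Epcam lay at 0.0011 there. Adipocyte markers (9 tested of 12) averaged 0.04 at 12 h, and macrophage markers (10) averaged -0.13. B lymphocyte markers (8 tested of 10) averaged 0.14 and T lymphocyte markers (10 tested of 12) 0.05 at 12 h. The adipocyte, B and T lymphocyte means at 12 h lay within the vehicle range. Vehicle 1 and vehicle 2 lay at -0.04 and 0.04 for adipocytes, -0.14 and 0.14 for B and -0.07 and 0.07 for T lymphocytes. The part of luminal epithelium in the 12 h pattern was not tested.

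Other mitochondrial genes are given by their 12 h position, where 37.9% of all tested genes were above both vehicle arrays. Of 16 tested genes of the TCA cycle and pyruvate dehydrogenase 13 were above both vehicle arrays at 12 h, with a mean of 0.10, among them Cs, the citrate synthase, at 0.18. Mitochondrial carriers and channels averaged 0.10 at 12 h (8 of 11 above both vehicle arrays), and Mpc1, a subunit of the pyruvate carrier, lay at 0.23. Electron carriers and related genes not covered by the symbol rule averaged 0.10 (6 of 9), with Cyc1, the cytochrome c1 of complex III, at 0.21. Beta oxidation averaged 0.08 (8 of 13), and respiratory chain assembly factors outside the Nduf family averaged 0.08 (20 of 30). In these lists limma called 0 genes in each of the 3 window comparisons, where the whole table gave the percentages above.

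Of 13 tested regulators of mitochondrial biogenesis 5 were above both vehicle arrays at 12 h, which is near the 37.9% of all tested genes, with a mean of 0.03. Nrf1, a transcription factor of respiratory genes, read 397 and 409.97 with vehicle and 383 at 12 h. Esrra, the estrogen-related receptor alpha, read 300.2 and 285 with vehicle and 292 at 12 h. Tfam, the mitochondrial DNA packaging factor, was highest at 3 h, at 635 against 494 and 544 with vehicle. Ppargc1a, a coactivator of these genes, did not pass the level filter on these arrays. Limma called 0 of the 13 in each window comparison.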

How the data were processed

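Total RNA of inguinal mammary tissue was biotin-labelled and hybridised to 1-colour Affymetrix arrays, per the labels. The deposited values are intensities normalized together by the authors, on a linear scale from 13.8 to 23591; GCOS 1.0 and RMA are named in the submitters' processing notes, without role or order. Log2 was taken of the deposited intensities with no further normalization. Of 45101 probe sets, 64 controls, 932 with several symbols and 9160 without one were left out, and the other 34945 gave 18193 genes. Symbols come from the platform annotation, and all 90 members matched RefSeq by Entrez identifier. Genes with a mean log2 level at or above the 40th percentile (7.72) were tested. Models with 3 window means (5 residual degrees of freedom) were fitted to all tested genes with limma 3.58.1 (R 4.3.3), with a trend of variance on level and two-sided tests; the script was tested on simulated data. Lists are described by counts and medians beside those of all tested genes. The members, lists and the rule for named genes (brightest, widest range, smallest p-values per complex, isoforms) were chosen with earlier results of these data known; Ndufs1, Ndufa5, Ndufb10, Uqcrc2, Uqcr10, Atp5pb, Cox7a2l, Ndufa4l2, Cox4i2, Nrf1, Esrra, Ppargc1a and the assembly factors outside it were named after their values were seen.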

Additional observations from a re-analysis of the deposited data

Results flagged for a closer look

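Sdhc, a membrane anchor of complex II, was below the vehicle mean on all 3 early arrays and above it on all 3 late arrays, and its late window lay 0.13 above its early window (limma adjusted p = 0.155). This holds for its brightest probe set, while the other Sdhc probe set above the level filter had the same log2 level, 11.08, at 1 h and 12 h. The same sign pattern was present in 2 of 83 members, the other being Ndufaf3, and in 2.82% of all tested genes.

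Probe sets that carry several gene symbols were not used in the comparisons. Of the 10 that include a member's symbol 7 passed the level filter, and 5 of these 7 were above both vehicle arrays at 12 h, with a median of 0.086 on the log2 scale. The highest was the probe set shared by Ndufa11b and Ndufa11, at 0.26.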

How the results depend on the processing

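No paired analysis was possible because each E2 group has 1 array and its label carries no replicate number. Over 17 alternatives each, the member medians, 0.02, 0.08 and 0.04 in the main setting, lay between -0.0054 and 0.05 for early against vehicle, between 0.05 and 0.10 for late against vehicle and between 0.01 and 0.08 for late against early. The early median changed sign with quantile normalization. With single arrays left out these ranges were 0.01 to 0.04, 0.05 to 0.10 and 0.01 to 0.07. Leaving out a vehicle array leaves 1 in that group, which is then assumed to vary like the others. The count of members called was 0 in all alternatives but 1, the muscle marker covariate, with 1 call (Cox7a2l) in late against early.

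Counts over all genes were less stable. For late against early, 60 in the main setting, the count was 32 with quantile normalization, 23 with probe sets averaged per gene, 587 with the muscle covariate and 12 with the adipocyte covariate, and between 0 (without the 18 h or the 24 h array) and 232 (without the 1 h array) with single arrays left out. For early against vehicle, 0 in the main setting, it was 1 without the level filter, 1 with the mean of probe sets and 7 with the muscle covariate, and between 0 and 49 (without the 1 h array) with single arrays left out. Members above both vehicle arrays numbered 18 at 1 h and 30 at 6 h with quantile normalization, where they were 44 and 50, and 23 at 24 h with centred arrays, where they were 38. At 12 h they numbered 73, 75 and 71 under the 3 scalings. The cause of these changes was not tested. The number of arrays limits the precision.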

Other observations

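Of the 90 members 51 have more than 1 probe set. Among the 89 probe sets of members that were not used, 64, of 44 genes, passed the level filter, and 50 of them (78.1%) were above both vehicle arrays at 12 h, against 35.6% of all 17786 probe sets with 1 symbol at this level. Their median at 12 h was 0.11. Probe sets named _x_at or _s_at, which can match several transcripts, had a median of 0.13 at 12 h over 18 members, and the other 65 tested members had a median of 0.14.

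Ndufb4 and Cox7c fell below the level filter through the probe sets that carry their symbol alone. Both probe sets shared by Ndufb4 and its copies Ndufb4b and Ndufb4c passed it, and lay at 0.06 and 0.11 at 12 h.

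Signals at the 3′ and 5′ ends of control transcripts, a sign of RNA integrity, differed by 0.31 (log2) for Actb and by 0.0077 for Gapdh on the 12 h array, within the range over all arrays (0.27 to 0.36 and -0.02 to 0.04).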
